A study of Homo sapiens with 12 samples.

Results

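The 8 genes described here encode the coat of caveolae. They are the caveolins CAV1, CAV2 and CAV3, the cavins CAVIN1, CAVIN2 and CAVIN3, the neck protein EHD2 and the membrane-bending protein PACSIN2, and they were picked by gene name from the 58302 genes of an RNA-sequencing table of prostate cell lines. All 8 names were found, each in 1 row. The families were picked with the levels of these same libraries already known, so the differences between the lines are given below as a description, with standard errors and without a test.

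Caveolae are small flask-shaped pits of the plasma membrane that are rich in cholesterol and sphingolipids. CAV1 inserts a hairpin into the inner face of the membrane and assembles into oligomers, CAV2 joins these oligomers and needs CAV1 to leave the Golgi apparatus, and CAV3 takes the place of CAV1 in muscle. Cavins are soluble proteins that coat the bulb from outside: CAVIN1 is required for caveolae to form, while CAVIN2 and CAVIN3 enter the complex through CAVIN1. EHD2 is an ATPase that forms rings at the neck of the pit and holds it at the surface, and PACSIN2 carries an F-BAR domain that binds and curves the membrane there.

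The table held 12 libraries, 4 each of BPH-1, DU145 and PC3. BPH-1 is an immortalised line of benign prostate epithelium, and DU145 and PC3 are lines from metastases of prostate cancer (PCa). All 3 were labelled as wild type and grown in the same serum-supplemented medium, and the labels give no treatment, passage, age or statement that the 4 libraries of a line came from separate cultures, so the spread between them may be technical. Each line is 1 model, and a difference between lines cannot be told apart from a difference between benign and malignant cells. Values are FPKM, read counts scaled to gene length and library depth, and the depth recovered from the steps of the low values was 12950696 to 16309587 reads per library. Where a line had no read of a gene, 3 reads per library were taken as the floor, which covers counting error only.

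The labelled origin was set against its markers. KRT8, KRT18 and KRT19, keratins of simple epithelia, were present in every line (mean FPKM of 19.7 or more for each), whereas EPCAM and CDH1, adhesion proteins of epithelia, were at 0.376 and 0.180 in DU145 and CDH1 was at 0.786 in PC3. Of 4 markers of the basal layer, KRT5, KRT14 and TP63 were at 147, 203 and 12.9 in BPH-1 and at 0.216 or less in the other lines, whereas KRT15 was at 1.31 ± 0.813 in BPH-1, 0.270 ± 0.130 in DU145 and 1.67 ± 0.560 in PC3. KLK2 and KLK3, kallikreins of luminal prostate cells, were at 0.00284 or less in all 3 lines. Other cells that are rich in caveolae were looked for as well. The summed FPKM of 6 endothelial markers was 0.249 to 0.642 in BPH-1, 0.129 to 0.404 in DU145 and 1.57 to 3.65 in PC3, of 5 adipocyte markers 0.0208 to 1.16, 0 to 0.0925 and 0.699 to 1.41, and of 5 skeletal muscle markers no more than 0.609 in any library. The 5 smooth muscle markers summed to 5.06 to 5.79 in BPH-1, 0.992 to 2.21 in DU145 and 12.6 to 17.4 in PC3, most of it SMTN, with mean MYH11 and DES at 0.134 or less in each line, and 6 fibroblast markers summed to 1.98 to 3.73, 0.660 to 1.88 and 3.10 to 3.98. In these bulk libraries fewer cells of a type and less RNA per cell cannot be told apart.

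Libraries of the same line also differed along gene GC content. The median deviation of GC-poor genes (lowest GC quartile) minus that of GC-rich genes (highest GC quartile), in log2 units within a line, was -0.36, 0.61, -0.65 and 0.39 in DU145 replicates 1 to 4, 0.27, 0.20, -0.06 and -0.40 in PC3, and between -0.06 and 0.08 in BPH-1. DU145 replicates 1 and 3 and PC3 replicate 4 therefore lay on the GC-rich side. Differences of named genes that moved by over 1.5 times without them are given both ways.

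**Figure D1:**
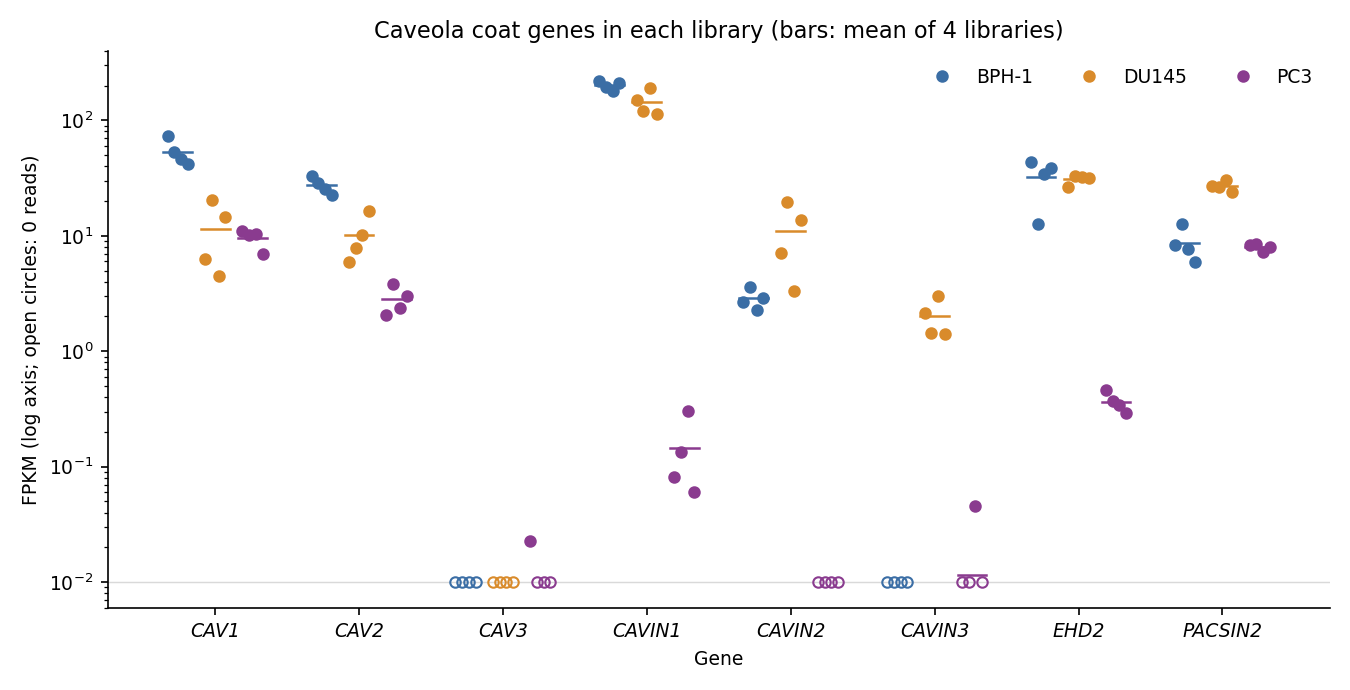
FPKM of the 8 caveola coat genes (log axis) in each of the 12 libraries, with the 4 points of a line in the order of its replicate numbers and short bars at the mean of the line. Open circles on the lowest grey line are libraries with 0 reads, and means that lie below it are not drawn. All 4 PC3 libraries lie at 0.301 FPKM or less for CAVIN1 and at 0.463 or less for EHD2, where the BPH-1 libraries are at 178 or more and 12.7 or more.

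CAV1 and CAV2 were lower in both PCa lines than in BPH-1 and were detected in all 12 libraries. CAV1, at 116524785 to 116561184 on the plus strand of chromosome 7 (GRCh38, ENSG00000105974), was at 72.6, 53.3, 46.5 and 41.6 FPKM in BPH-1, at 6.25, 20.4, 4.49 and 14.5 in DU145 and at 10.9, 10.2, 10.3 and 6.95 in PC3. Every library of both PCa lines was below every BPH-1 library, and the PCa lines overlapped. The mean was 53.5 ± 13.6 (SD, n = 4) in BPH-1 against 11.4 ± 7.41 in DU145 and 9.60 ± 1.8 in PC3, so BPH-1 was 4.69-fold above DU145 and 5.57-fold above PC3. On the log2(FPKM + 1) scale CAV1 was lower by 2.32 (SE 0.40) in DU145 and by 2.35 (SE 0.19) in PC3, and PC3 minus DU145 was -0.03 (SE 0.40). Without DU145 replicates 1 and 3 the difference between DU145 and BPH-1 was -1.55. Without these and PC3 replicate 4, PC3 minus DU145 was -0.67. The remaining DU145 libraries (20.4 and 14.5) then lay above the remaining PC3 libraries (10.2 to 10.9).

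CAV2, the partner of CAV1, was lower in PC3 than in either other line. It lies at 116287380 to 116508541 on the same strand (ENSG00000105971), and 16243 bases separate its end from the CAV1 start. Its FPKM was 33.2, 28.4, 25.5 and 22.4 in BPH-1, 5.93, 7.90, 10.2 and 16.5 in DU145 and 2.04, 3.85, 2.35 and 3.04 in PC3, and no 2 lines overlapped. The means of 27.4 ± 4.59, 10.1 ± 4.59 and 2.82 ± 0.803 (SD, n = 4 each) put BPH-1 2.70-fold above DU145 and 9.70-fold above PC3, and DU145 3.59-fold above PC3. With each library's trend against gene GC content divided out, the log2 difference to BPH-1 went from -1.42 to -0.51 (SE 0.30) in DU145 and from -2.90 to -2.13 (SE 0.22) in PC3. DU145, at 6.69 to 21.5 FPKM, then overlapped BPH-1, at 14.9 to 21.4, and PC3 stayed below both. An antisense gene that overlaps CAV2, AC002066.1, was at 0.547 ± 0.187, 2.12 ± 0.301 and 0.259 ± 0.152 FPKM in the 3 lines (SD, n = 4), in another order than CAV2. Whether strand was used in counting is not given in the sources used here, so reads of the overlap could be assigned to either gene.

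CAV3, the muscle caveolin on chromosome 3 (8733800 to 8841808, ENSG00000182533), had a single read in PC3 replicate 1 (0.0229 FPKM) and none in the other 11 libraries. It did not pass the filter on low values in any comparison.

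CAVIN1 was the gene with the widest range. This principal cavin, at 42402452 to 42423517 on the minus strand of chromosome 17 (ENSG00000177469), was at 218, 195, 178 and 209 FPKM in BPH-1, 150, 121, 192 and 114 in DU145 and 0.0807, 0.133, 0.301 and 0.0605 in PC3. BPH-1 and DU145 overlapped, and the PC3 values stood for 4, 7, 16 and 3 reads, 30 in all, where the other libraries held 5848 to 12882 each. The mean of 200.1 ± 17.5 in BPH-1 was 1.39-fold that of DU145 (144 ± 35.3) and 1390-fold that of PC3 (0.144 ± 0.109, SD, n = 4 each), and DU145 was 1000.4-fold above PC3. Without PC3 replicate 3, which held 16 of the 30 reads, these folds over PC3 were 2186 and 1574. Among 19817 protein-coding genes the mean level of CAVIN1 stood at percentile 99.7 in BPH-1, 99.5 in DU145 and 37.6 in PC3. The log2(FPKM + 1) difference, which compresses low values, was -7.46 (SE 0.11) between PC3 and BPH-1, -6.96 (SE 0.18) between PC3 and DU145, and -0.50 (SE 0.18) between DU145 and BPH-1. This last difference depended on the processing: it was -1.07 with the GC trend divided out, where the lines no longer overlapped, -0.76 without DU145 replicates 1 and 3, and -0.21 with upper-quartile scaling.

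CAVIN2 had no read in PC3, and CAVIN3 had none in BPH-1. CAVIN2, the membrane-curving cavin on chromosome 2 (191834302 to 191847255, minus strand, ENSG00000168497), was at 2.69, 3.59, 2.29 and 2.90 FPKM in BPH-1, at 7.15, 19.7, 3.29 and 13.8 in DU145, and had no read in any PC3 library. The lowest DU145 library fell within the range of BPH-1. With 3 reads per library as the floor, PC3 was at least 41.2-fold lower than BPH-1 (2.87 ± 0.543) and at least 158-fold lower than DU145 (11.0 ± 7.26, SD, n = 4 each). DU145 was on average 3.83-fold above BPH-1, a log2 difference of 1.41 (SE 0.42) that was 2.19 without DU145 replicates 1 and 3.

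CAVIN3, which binds protein kinase C delta, lies on chromosome 11 (6318946 to 6320647, minus strand, ENSG00000170955). DU145 alone held more than 2 reads of it in a library, with 2.16, 1.44, 2.99 and 1.42 FPKM from 110, 74, 145 and 60 reads. BPH-1 had 0 reads in all 4 libraries, and PC3 had 2 reads in replicate 3 (0.0459 FPKM) and none in the rest. DU145 (2.0 ± 0.741, SD, n = 4) was thus at least 32.4-fold higher than BPH-1 over the floor, and its reads per depth were 170 times those of PC3, with a 95% exact counting interval of 46.6 to 1405. Neither fold measures the level in the lower line, which was at or under the floor.

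EHD2, at the caveolar neck, divided the lines as CAVIN1 did. It is on chromosome 19 (47713343 to 47743134, plus strand, ENSG00000024422), at 43.1, 12.7, 34.5 and 38.9 FPKM in BPH-1, 26.5, 33.0, 32.4 and 31.6 in DU145 and 0.463, 0.369, 0.342 and 0.293 in PC3. The PC3 values rest on 24 to 38 reads per library. BPH-1 and DU145 overlapped (32.3 ± 13.5 against 30.9 ± 2.98, SD, n = 4), and PC3 (0.367 ± 0.0718) was 88.1-fold below BPH-1 and 84.3-fold below DU145. DU145 minus BPH-1 was 0.06 (SE 0.33) in log2 units and ran from -0.32 to 0.24 when single libraries were left out, the low end without BPH-1 replicate 2, the library at 12.7. Over all alternatives it ran from -0.51 (SE 0.40), with the GC trend divided out, to 0.35.

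PACSIN2 overlapped between PC3 and BPH-1 and was higher in DU145. The gene lies on chromosome 22 (42835412 to 43015145, minus strand, ENSG00000100266) and was at 8.26, 12.5, 7.63 and 5.90 FPKM in BPH-1, 27.1, 26.3, 30.6 and 23.9 in DU145 and 8.38, 8.49, 7.27 and 8.05 in PC3. PC3 lay inside the range of BPH-1, and every DU145 library was above both. DU145 (27.0 ± 2.80) was 3.14-fold above BPH-1 (8.58 ± 2.82) and 3.35-fold above PC3 (8.05 ± 0.553, SD, n = 4 each). The log2 difference was 1.58 (SE 0.21) to BPH-1 and 1.63 (SE 0.13) to PC3, against -0.04 (SE 0.19) for PC3 minus BPH-1. BPH-1 replicate 2 held the highest PACSIN2 and the lowest EHD2 of its line.

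Counted over the 8 genes, 6 passed the filter on low values in PC3 against BPH-1 and 7 in each of the other comparisons, and a gene high in 1 line passes through that line. In PC3 against BPH-1, 5 of the 8 had all PC3 libraries below all BPH-1 libraries (CAV1, CAV2, CAVIN1, CAVIN2 and EHD2) and 0 had them above, beside 38.6% and 25.8% of the 16410 genes tested. In DU145 against BPH-1, 2 were above (CAVIN3 and PACSIN2) and 2 below (CAV1 and CAV2), beside 28.8% and 30.6% of 17018 genes. With the GC trend divided out CAV2 overlapped between these lines, whereas CAVIN1 and CAVIN2 no longer did. In PC3 against DU145, 6 were below and 0 above, beside 27.5% and 19.1% of 16423 genes. The median log2 difference of the genes past the filter was -2.63, 0.06 and -1.63, against -0.13, -0.03 and -0.05 over all genes tested, and the 3 comparisons share libraries in pairs. As these contrasts were in view when the genes were picked, the counts describe the choice and are read no further.

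The order of the genes within a line depends on the gene length used. The deposited FPKM counts overlapping exons more than once, which gives CAV1 a length of 11351 bases against 4082 when its exons are merged (2.78 times), whereas CAVIN1 and CAVIN2 have the same length either way. With merged exons, mean FPKM in BPH-1 ran from CAVIN1 (200.1) and CAV1 (149) over EHD2 (52.1), CAV2 (40.9) and PACSIN2 (18.5) to CAVIN2 (2.87). In DU145 the order was CAVIN1 (144), PACSIN2 (58.1), EHD2 (49.9), CAV1 (31.7), CAV2 (15.2), CAVIN2 (11.0) and CAVIN3 (3.77). PC3 had CAV1 first (26.7), then PACSIN2 (17.3), CAV2 (4.22), EHD2 (0.592) and CAVIN1 (0.144). Neighbours in this order whose libraries overlapped were CAVIN1 with CAV1 and EHD2 with CAV2 in BPH-1, and in DU145 each pair from PACSIN2 down to CAVIN3. In PC3 no such pair from CAV1 down to CAVIN1 overlapped.

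Ratios within a library, taken here over merged exons, compare the messages without a scale shared between libraries. They keep the GC trend of the library where 2 genes differ in GC content, as CAVIN1 (59.9%) and CAV1 (46.2%) do. In DU145 the ratio of these genes was higher in replicates 1 and 3, on the GC-rich side, and the part of GC content in it was not tested. CAVIN1 over CAV1 was 1.08, 1.32, 1.38 and 1.81 in BPH-1, 8.62, 2.13, 15.3 and 2.83 in DU145 and 0.00265, 0.00472, 0.0105 and 0.00313 in PC3, so the lines did not overlap. In BPH-1 the messages of the 2 main coat proteins were at similar levels over merged exons only. On the deposited FPKM the BPH-1 ratio was 3.01 to 5.02, so how near it comes to 1 depends on the gene length used. With either length DU145 had more CAVIN1 than CAV1 in every library, and PC3 had CAV1 with next to no CAVIN1. CAV2 over CAV1 was narrow in BPH-1 (0.246 to 0.295), spread in DU145 (0.208 to 1.22) and at 0.10 to 0.235 in PC3. PACSIN2 over EHD2 was 0.202 to 1.31 in BPH-1, 1.01 to 1.36 in DU145 and 24.1 to 36.7 in PC3.

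**Figure D2:**
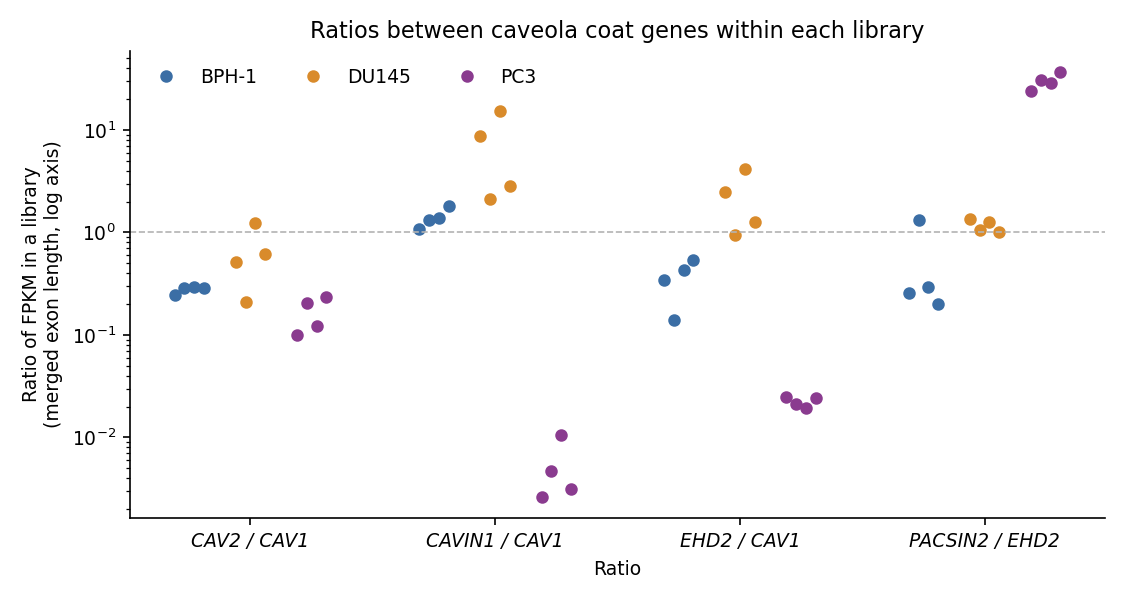
Ratio of FPKM between pairs of caveola coat genes in each library, with FPKM computed over merged exon lengths (log axis, dashed line at 1, 4 points per line in the order of the replicate numbers). CAVIN1 over CAV1 lies between 1.08 and 1.81 in BPH-1, at 2.13 or more in DU145 and at 0.0105 or less in PC3.

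Within DU145, the caveola genes were spread unequally over the 4 libraries. CAV1 was highest in replicate 2 and lowest in replicate 3, a ratio of 4.54, and CAVIN2 had the same order with a ratio of 5.99. CAVIN1 and CAVIN3 were higher in replicates 1 and 3 than in replicates 2 and 4, with ratios of 1.68 and 2.1 between the highest and the lowest library, and EHD2 (1.25) and PACSIN2 (1.28) varied least. Transcript GC content was 46.2% for CAV1, 43.2% for CAVIN2 and 40.7% for CAV2, against 59.9% for CAVIN1 and 67.1% for CAVIN3. Dividing out the GC trend took the ratio of CAV1 to 3.44, of CAVIN2 to 2.98, of CAVIN1 to 1.28 and of CAVIN3 to 1.2, and raised that of CAV2 from 2.78 to 3.22 and of EHD2 to 2.01. EHD2, with 61.6% GC, did not share the order of CAVIN1. CAV2, with the lowest GC content of these genes, did not share that of CAV1. It was at 5.93, 7.90, 10.2 and 16.5 FPKM in DU145 replicates 1 to 4. The part of GC content in this spread was not tested.

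**Figure D3:**
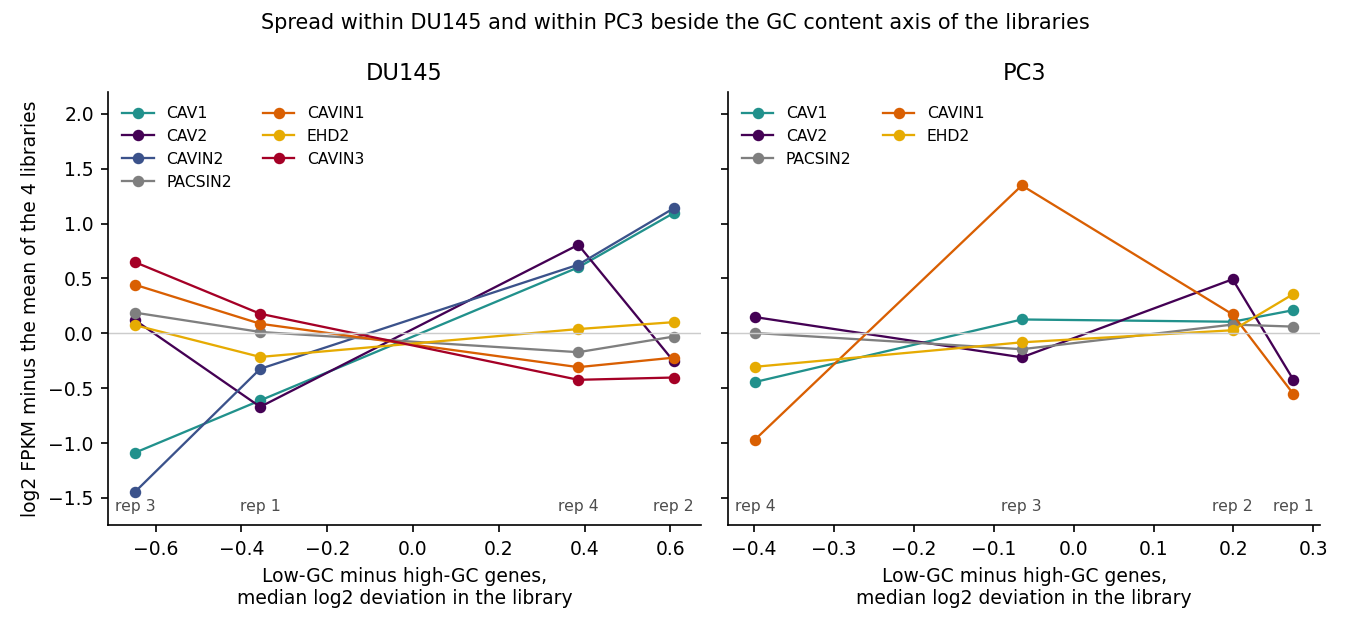
Deviation of log2 FPKM from the mean of the line for the caveola genes with reads in every library (vertical axis) in the 4 DU145 and the 4 PC3 libraries, placed by the difference between GC-poor and GC-rich genes in the same library (horizontal axis, median log2 deviation). In DU145 the lines of CAV1 and CAVIN2 climb from replicate 3 at -0.65 to replicate 2 at 0.61, and those of CAVIN1 and CAVIN3 descend. The lines of CAV2 and EHD2 follow neither course. The peak of CAVIN1 in PC3 replicate 3 rests on 16 reads.

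Start regions of 6 of the 8 genes were matched by symbol in the RefSeq tables (GRCh38.p14), the others being CAVIN1 and CAVIN3. A window ran from 250 bases before to 50 after a start, and the 6 genes had 14 windows among 35097. The stretches below are the parts before the start that lie outside annotated exons, for the matched genes that were lower or undetected in PC3. Where a gene had several starts, 1 was shown, for CAV1 an internal start and not those near the annotated gene start. They are shown for their CpG content, with each CG step in capitals, and are read 5′ to 3′ on the strand of the gene.
CAV1 (chr7:116526112-116526276, plus): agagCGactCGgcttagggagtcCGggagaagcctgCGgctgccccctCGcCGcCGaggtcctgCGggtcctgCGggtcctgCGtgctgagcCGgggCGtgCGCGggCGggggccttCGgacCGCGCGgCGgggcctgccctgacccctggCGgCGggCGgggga
CAV2 (chr7:116499932-116500043, plus): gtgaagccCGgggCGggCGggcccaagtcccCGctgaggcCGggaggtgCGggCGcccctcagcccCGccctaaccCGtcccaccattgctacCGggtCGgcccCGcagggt
EHD2 (chr19:47713172-47713342, plus): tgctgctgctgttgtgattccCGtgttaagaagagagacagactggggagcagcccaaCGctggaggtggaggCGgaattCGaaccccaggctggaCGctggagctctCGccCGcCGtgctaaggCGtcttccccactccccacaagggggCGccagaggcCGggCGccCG
CAVIN2 (chr2:191847256-191847338, minus): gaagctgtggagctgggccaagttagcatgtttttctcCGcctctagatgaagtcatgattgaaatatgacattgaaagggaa

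CpG steps were dense before this CAV1 start (23 in 165 bases), CAV2 (12 in 112) and EHD2 (13 in 171) and near absent before CAVIN2 (1 in 83). Over the whole windows the same CAV1, CAV2 and EHD2 starts held 36, 33 and 30 CpG steps, at percentiles 87.3, 82.8 and 77.6 of all windows (median 14), and CAVIN2 held 5, at percentile 29.7. The other CAV1 starts held 19 and 18, at percentiles 57.1 and 55.6, and the other CAV2 start held 43, at 95. The genes lower in PC3 thus included CpG-rich and CpG-poor starts. A GC box (GGGCGG, either strand) was found in 7 of the 14 windows, namely all 5 of CAV1 and CAV2, that of EHD2 and the distal one of PACSIN2, and in 44.9% of all windows. TATAAA, in 11.5% of all windows, and the AP-1 letters TGANTCA, in 7.71%, were in 0 of the 14, and the TEAD letters GGAATG (14.0%) were in 5, 1 of CAVIN2 and 4 of PACSIN2. Several windows of PACSIN2, and some of CAV1, overlap over most of their length. The same match can therefore be counted in more than 1 window, and these counts are not compared with the shares. No motif contains another, and a match of letters is not a binding site.

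The 2 caveolin genes share a stretch of chromosome 7 with other genes, with 50 genes within 1 Mb of CAV1, of which 8 passed the filter in at least 1 comparison, CAV1 and CAV2 among them. MET, the receptor of hepatocyte growth factor 148 kb beyond the CAV1 start, was at 41.6 ± 7.54 FPKM in BPH-1, 8.25 ± 7.31 in DU145 and 32.3 ± 16.2 in PC3 (SD, n = 4). It fell in DU145 against BPH-1 (log2 -2.66, SE 0.59, limma adjusted p = 0.00299), and its difference between PC3 and BPH-1 did not pass the test (-0.56, SE 0.45, limma adjusted p = 0.286). Without DU145 replicates 1 and 3 the former was -1.44, still called, and without PC3 replicate 4 the latter was -0.03. CAPZA2, an actin-capping subunit, fell in both PCa lines, from 5.20 ± 0.285 to 1.41 ± 0.381 in DU145 (log2 -1.37, SE 0.16, limma adjusted p = 5.47e-05) and 1.26 ± 0.507 in PC3 (log2 -1.48, SE 0.16, limma adjusted p = 3.64e-05). TES, a focal adhesion protein on the other side, was at 10.3 ± 1.40, 17.7 ± 8.09 and 10.6 ± 1.71 and passed in neither comparison with BPH-1 (limma adjusted p = 0.0963 in DU145 and 0.824 in PC3), but it was called in DU145 without DU145 replicate 3 (log2 0.89, limma adjusted p = 0.0104), without replicates 1 and 3 (1.19, limma adjusted p = 0.000361), and in both lines with upper-quartile scaling or the GC trend divided out. The genes around the caveolins thus did not share 1 order of the lines, and the low CAV2 of PC3 lay between TES and MET, neither of which was called in PC3 against BPH-1 on the deposited scale.

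**Figure D4:**
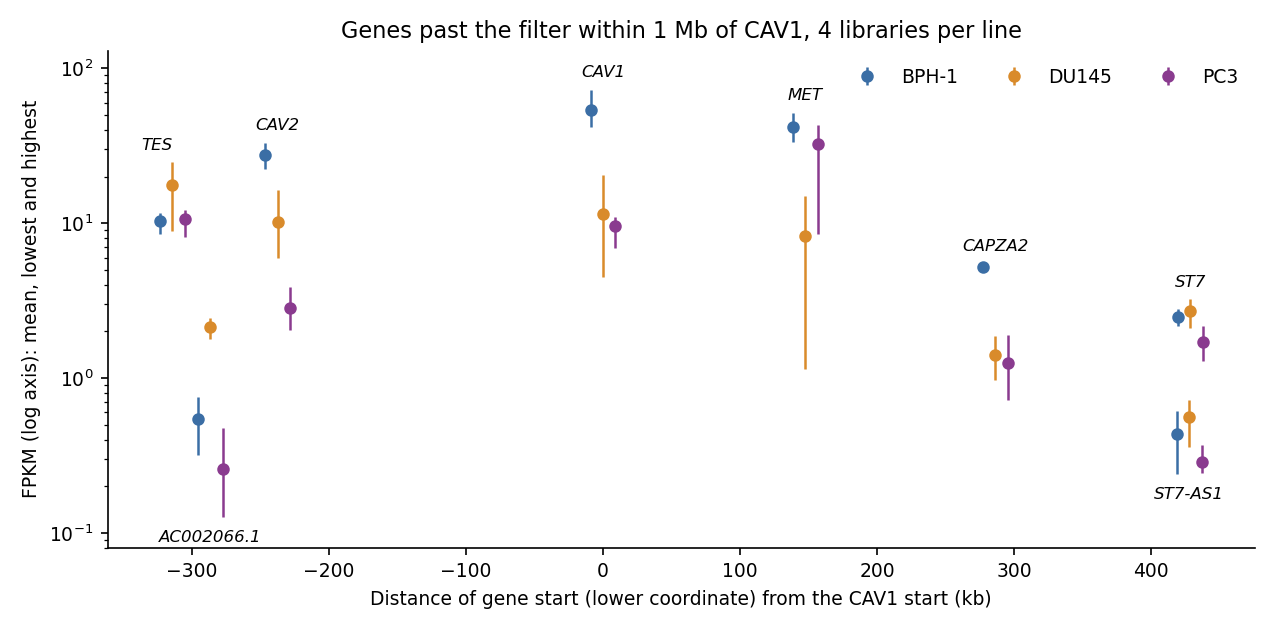
FPKM (log axis) of the 8 genes past the filter within 1 Mb of CAV1, by the distance of their lower coordinate from that of CAV1 in kb. Points are means of 4 libraries per line, offset sideways, and bars run from the lowest to the highest library. CAV1, CAV2 and CAPZA2 have both PCa lines under BPH-1, whereas MET in PC3 (32.3) stays near BPH-1 (41.6) apart from the library at 8.5.

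Genes around the caveola were then followed through 4 lists of 56 genes in all, which hold none of the 8 genes above. Of their genes, 23 rose and 17 fell among 54 tested in PC3 against BPH-1 (74.1% called, beside 67.6% of all genes, 27.1% higher and 40.4% lower), 20 rose and 15 fell among 54 in DU145 against BPH-1 (64.8% beside 62.7%, 30.3% higher and 32.4% lower), and 12 rose and 14 fell among 52 in PC3 against DU145 (50% beside 48.3%, 20% higher and 28.4% lower). Of all calls in PC3 against BPH-1, 40.2% were higher in PC3, and 54.6% with upper-quartile scaling. Calls are Benjamini-Hochberg adjusted p-values under 0.05 over all genes from limma on log2(FPKM + 1).

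Among 14 caveolar partners, 13 were tested. In PC3 against BPH-1, 8 rose, 3 fell and 2 did not pass (median log2 difference 0.45), in DU145 against BPH-1 6, 2 and 5 (0.50), and in PC3 against DU145 1, 4 and 8 (-0.19). FLOT1, a flotillin that marks membrane rafts outside caveolae, rose the most: 9.75, 12.1, 9.07 and 9.94 FPKM in BPH-1 stood against 122, 60.3, 108 and 81.2 in DU145 and 52.3, 52.3, 56.8 and 60.3 in PC3. Its log2 difference to BPH-1 was 3.02 (SE 0.22, limma adjusted p = 3.29e-06) in DU145 and 2.33 (SE 0.11, limma adjusted p = 2.08e-07) in PC3. FLOT2, its partner, rose from 5.69 ± 0.790 to 16.8 ± 4.45 in DU145 (log2 1.39, SE 0.20, limma adjusted p = 0.000237), and its smaller rise in PC3 (0.58, SE 0.13) lost its call with the GC trend divided out (0.09).

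The EHD paralogs of EHD2 did not share its pattern. EHD4, an endocytic ATPase, was at 13.5 ± 1.48, 41.4 ± 8.07 and 26.8 ± 3.92 FPKM in BPH-1, DU145 and PC3 and rose in both PCa lines (log2 1.53, SE 0.17, limma adjusted p = 4.74e-05 in DU145, and 0.93, SE 0.13, limma adjusted p = 0.000144 in PC3). EHD3, of the recycling endosome, fell in both, from 6.72 ± 1.18 to 2.92 ± 0.865 and 3.39 ± 0.881 (log2 -0.99, SE 0.19, limma adjusted p = 0.00149, and -0.82, SE 0.17, limma adjusted p = 0.00191, the latter not called under upper-quartile scaling). DNM2, the dynamin that severs caveolae and clathrin pits, rose from 6.01 ± 0.238 to 11.4 ± 1.65 in PC3 (log2 0.81, SE 0.12, limma adjusted p = 0.000198) and to 11.1 ± 2.76 in DU145 (0.77, SE 0.18, limma adjusted p = 0.00431). With the GC trend divided out these were 0.26, still called, and 0.25, not called, and without DU145 replicates 1 and 3 the DU145 value was 0.50, still called. CAVIN4, the muscle cavin, was low in all 3 lines, at 0.768 ± 0.163, 0.514 ± 0.382 and 0.263 ± 0.189.

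Of 12 kinases, receptors and other signalling proteins that are known to bind or signal through caveolin, among them the adaptor GRB7 and the nitric oxide synthase NOS3, 4 rose and 6 fell in PC3 against BPH-1, 4 rose and 5 fell in DU145 against BPH-1, and 3 of the 11 tested rose and 3 fell in PC3 against DU145, with medians of -0.11, -0.05 and 0.41. The Src family, which phosphorylates CAV1, split by member. SRC was at 23.1, 22.9, 25.1 and 27.1 FPKM in PC3 against 8.02, 8.09, 6.79 and 7.78 in BPH-1 (log2 1.56, SE 0.10, limma adjusted p = 1.64e-06), with DU145 at 8.26 ± 2.41. FYN was at 5.03, 5.07, 5.11 and 5.0 in DU145, above BPH-1 (2.46 ± 0.290, log2 0.81, SE 0.14, limma adjusted p = 0.000677), and at 1.51 ± 0.142 in PC3. YES1 fell in both PCa lines, from 24.4 ± 1.46 to 4.02 ± 2.76 in DU145 (log2 -2.53, SE 0.37, limma adjusted p = 0.00022) and 7.80 ± 4.56 in PC3 (-1.70, SE 0.35, limma adjusted p = 0.00191).

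ABL1, a kinase that also phosphorylates CAV1, and PRKCA, protein kinase C alpha, were highest in DU145. ABL1 was at 48.9 ± 9.45 there against 12.4 ± 0.688 in BPH-1 (log2 1.88, SE 0.17, limma adjusted p = 1e-05) and 12 ± 1.51 in PC3, and PRKCA at 33.7 ± 18.9 against 4.33 ± 0.477 (2.50, SE 0.39, limma adjusted p = 0.000339) and 10.1 ± 1.8. PRKCD, the kinase that CAVIN3 binds, rose in PC3 from 10.6 ± 1.54 to 33.5 ± 4.53 (log2 1.57, SE 0.14, limma adjusted p = 8.55e-06). EGFR, the epidermal growth factor receptor, fell in PC3 from 41.6 ± 4.61 to 11.5 ± 4.83 (log2 -1.84, SE 0.24, limma adjusted p = 0.000105). Its DU145 libraries were at 5.60, 31.4, 2.33 and 31.9, and its lower level there (log2 -1.78, SE 0.67, limma adjusted p = 0.0393) lost its call without any 1 of the BPH-1 replicates (limma adjusted p = 0.0674 to 0.0827) without DU145 replicate 1 (0.106) or 3 (0.0752), and without the filter (0.0949). Without both DU145 replicates 1 and 3 it was -0.38 (limma adjusted p = 0.0282).

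Caveolar lipid genes, which make or move the cholesterol, sphingomyelin, phosphatidylserine and phosphoinositides of the caveolar membrane, went both ways. Of 12 tested, 4 rose and 4 fell in each comparison with BPH-1, and of 11 tested in PC3 against DU145 3 rose and 3 fell (medians 0.06, -0.14 and 0.20). PTDSS1, a phosphatidylserine synthase, rose from 5.81 ± 0.679 to 29.2 ± 4.46 in PC3 (log2 2.15, SE 0.13, limma adjusted p = 1.03e-06) and 18.3 ± 4.05 in DU145 (1.49, SE 0.18, limma adjusted p = 8.09e-05). NPC1, which exports cholesterol from lysosomes, rose to 30.6, 22.7, 28.9 and 28.9 FPKM in DU145 from 3.08, 5.04, 3.99 and 4.87 in BPH-1 (log2 2.46, SE 0.18, limma adjusted p = 2.87e-06). ABCA1, which exports cholesterol from the cell, and SGMS2, a sphingomyelin synthase, fell in both PCa lines, by 1.52 and 1.53 in DU145 and by 1.33 and 1.38 in PC3 on the log2 scale.

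The clathrin coat, the other main route of uptake from the plasma membrane, had 7 genes that rose and 4 that fell of 17 in PC3 against BPH-1, 6 and 4 in DU145 against BPH-1, and 5 and 4 in PC3 against DU145 (medians 0.11, -0.17 and 0.04). The F-BAR proteins FCHO1 and FCHO2, which start clathrin pits, moved in opposite directions. FCHO1 rose from 0.0587, 0.0808, 0.0848 and 0.174 FPKM in BPH-1 to 1.31, 1.1, 1.38 and 1.05 in DU145 (log2 1.01, SE 0.08, limma adjusted p = 4.31e-06) and 3.77, 3.25, 3.84 and 3.49 in PC3 (2.06, SE 0.09, limma adjusted p = 1.07e-07). FCHO2 fell from 4.23, 4.6, 4.62 and 5.13 to 0.705, 0.979, 0.241 and 0.810 in DU145 (log2 -1.76, SE 0.17, limma adjusted p = 1.72e-05) and 0.659, 0.452, 0.278 and 0.191 in PC3 (-2.03, SE 0.13, limma adjusted p = 1.18e-06). PICALM, a clathrin assembly protein, fell in PC3 from 24.0 ± 2.29 to 2.85 ± 1.11 (log2 -2.74, SE 0.21, limma adjusted p = 4.56e-06), while its DU145 libraries ran from 4.48 to 28.1. AP2M1 of the AP-2 adaptor rose from 33.9 ± 0.759 to 68.1 ± 16.9 in DU145 (log2 0.95, SE 0.18, limma adjusted p = 0.00118) and 67.2 ± 8.37 in PC3 (0.96, SE 0.10, limma adjusted p = 3.52e-05).

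Dividing out the GC trend moved other differences of these genes and their neighbours to BPH-1 by over 1.5 times on the log2 scale while their calls held. In DU145 the values became 0.89 for FLOT2, -1.47 for YES1, -0.83 for SGMS2, -0.94 for FCHO2, 0.42 for AP2M1 and -0.68 for CAPZA2. In PC3 they became 0.59 for EHD4, 1.02 for SRC, -0.58 for YES1, -0.61 for SGMS2, -1.28 for FCHO2, 0.47 for AP2M1 and -0.87 for CAPZA2. None of these changed direction.

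**Figure D5:**
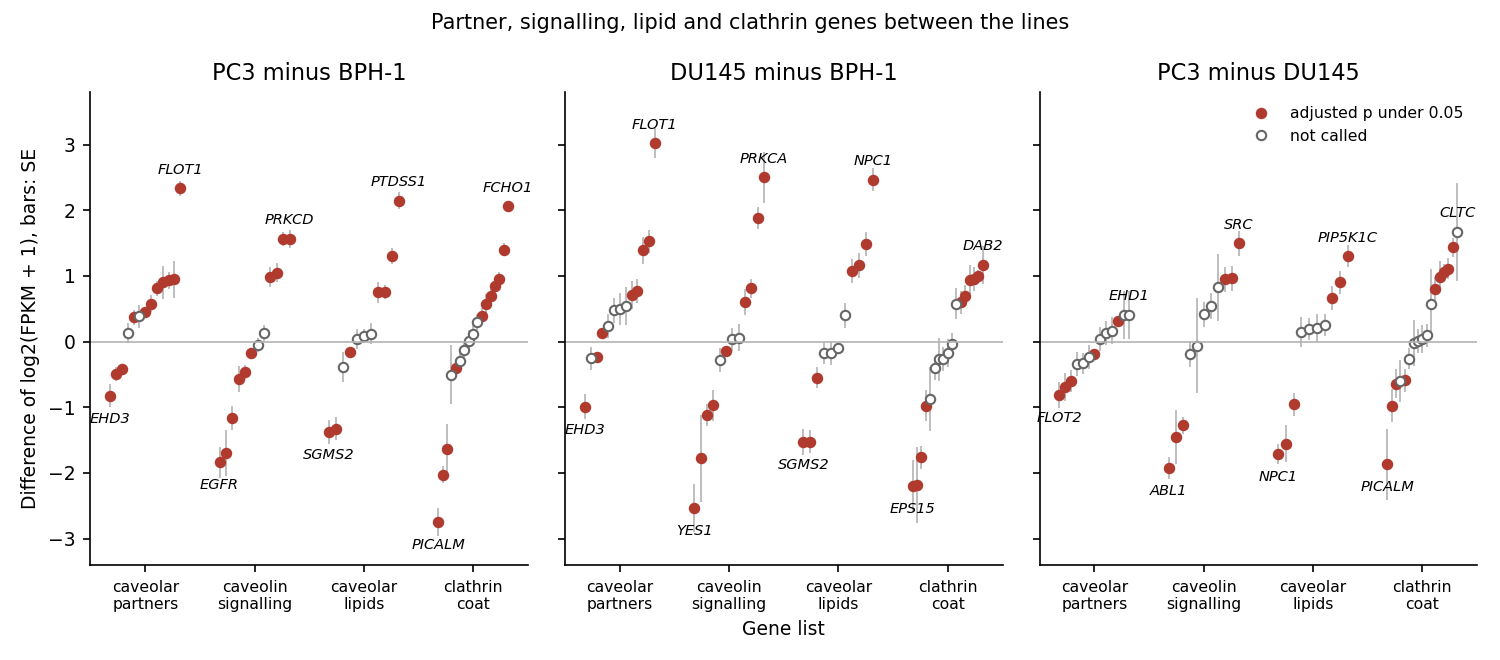
Difference of log2(FPKM + 1) between lines (vertical axis, bars: SE) for tested genes of the 4 lists, sorted within each list, with filled points at an adjusted p under 0.05 and the lowest and highest gene shown of each list named. FLOT1 stands highest against BPH-1 in both PCa lines, at 2.33 in PC3 and 3.02 in DU145.

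The genes most like CAV1, CAVIN1 and PACSIN2 in their pattern were found by Pearson's r of log2(FPKM + 1) over the 12 libraries, among 12829 genes with a mean of at least 1 FPKM. The libraries of a line share much of their variation, so r largely records the levels of the 3 lines. The spread within a line enters r as well. In DU145 it was wide for CAV1 (11.4 ± 7.41 FPKM) and for genes near it, such as DLG1 (1.98 ± 1.52) and SNX4 (2.77 ± 1.89). These parts of r were not told apart. Among the nearest to CAV1 were DLG1, CD44, UQCRC2 and SNX4 (r between 0.984 and 0.986), all higher in BPH-1 than in both PCa lines. For example, CD44, the hyaluronan receptor, was at 30.9 ± 1.74, 10.8 ± 4.12 and 9.58 ± 0.918 in BPH-1, DU145 and PC3. CAV2 ranked 2725 in likeness to CAV1 (r = 0.787). CAVIN1 was nearest to AC010503.4, CRB3, ALDH16A1, AFAP1L2 and RNA5SP283 (r between 0.992 and 0.994), each nearly absent from PC3, and EHD2 ranked 24 (r = 0.980). PACSIN2 was nearest to STARD3NL, MYL9, CTGF, MT1P3 and CMTM3 (r between 0.976 and 0.983), each highest in DU145. The difference was small for STARD3NL, the nearest, at 9.95 ± 1.13 in DU145 against 5.15 ± 0.788 in BPH-1 and 4.68 ± 0.101 in PC3. It was large for CTGF, a secreted matricellular protein, at 408 ± 69.9 in DU145 against 17.7 ± 5.53 in BPH-1 and 16.9 ± 6.44 in PC3.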

How the data were processed

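RNA of 3 prostate cell lines was sequenced in 12 libraries, 4 per line, grouped by the cell line named in the labels. The authors deposited FPKM-like values of 58302 genes, read counts divided by gene length and library depth, under a header that names no unit. They are called FPKM here. The submitters' processing notes name CASAVA 1.8, HISAT2 2.1.0, edgeR and the builds GRCh38 and hg38, without roles. The use of strand and any filter are not given in the sources used here. Gene length was found to be the sum of distinct GENCODE 29 exons: with it 92.2% to 93.6% of low values of protein-coding genes (under 50 reads) were whole reads within 0.02, against 15.4% to 18.2% with merged exons. For 263 genes no length was found, and they were not tested.

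limma 3.58.1 (R 4.3.3, trend) was fitted to log2(FPKM + 1) for each pair of lines, over genes with 10 reads at the median depth in at least 4 libraries and 15 in all. Calls were Benjamini-Hochberg adjusted p-values under 0.05. A fold change on this scale understates that of low genes. The fits were tested on simulated data. No library was a copy of another: each of the 18 replicate pairs differed beyond sampling of reads, with chi-square values of 17.3 to 215 per gene. 0 columns were left unassigned. Python 3.11.15 with numpy 2.4.6, pandas 2.3.3, scipy 1.17.1 and matplotlib 3.10.9 was used for the rest.

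The members and lists were chosen with earlier results of these data known. Genes named are the 8 members, genes of the 4 lists (those called in all comparisons or with the largest difference first), genes within 1 Mb of CAV1, and the 5 most like CAV1, CAVIN1 and PACSIN2 among genes with a symbol and a mean FPKM of at least 1, Y-linked genes left out after the first run. Alternatives were other filters, scalings and pseudocounts, voom on the recovered reads, a GC correction (a spline, 5 degrees of freedom, fitted where a gene had 50 reads), a replicate block, 1 fit over all 3 lines and leaving out libraries. Leaving out DU145 replicates 1 and 3 and PC3 replicate 4 together was added after seeing the data. Some genes are counted in the lists but not reported here.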

Additional observations from a re-analysis of the deposited data

Results flagged for a closer look

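Chance alone passes Dixon's test at the 95% level in about 5% of groups of normally distributed values. The test was applied to 23 sets of values, and 3 of them had an extreme library. These were CAV3 in PC3 replicate 1 (0.0229 FPKM, a single read), CAVIN3 in PC3 replicate 3 (0.0459 FPKM, 2 reads) and the summed FPKM of DU145 replicate 4 (302456, the highest of its line). The other PC3 libraries had no read of CAV3 or CAVIN3, so any read in 1 library would have been flagged. The 5% does not apply to such sets.

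For the coat genes CAVIN2 and PACSIN2, every DU145 library lay above the BPH-1 mean and every PC3 library below it. The mean FPKM of CAVIN2 was 8.12 above BPH-1 in DU145, and PC3 minus BPH-1 was -2.87. For PACSIN2, DU145 minus BPH-1 was 18.4 and PC3 minus BPH-1 was -0.532, with PC3 inside the range of BPH-1 and a log2 difference whose sign changed with the processing. These differences between the lines were not tested, since the genes were picked with them in view.

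FYN and PIP5K1C moved in opposite directions against BPH-1 in the PCa lines, and their difference between PC3 and DU145 passed limma's test. FYN had a log2 difference of -1.27 (SE 0.13, limma adjusted p = 4.26e-05) between PC3 and DU145, being higher than BPH-1 in DU145 and lower in PC3, and its lower level in PC3 was not called under upper-quartile scaling. PIP5K1C, a kinase that makes the phosphoinositide PI(4,5)P2, had a log2 difference of 1.30 (SE 0.17, limma adjusted p = 0.000191), being higher than BPH-1 in PC3 and lower in DU145. The PC3 call ended with the GC trend divided out and the DU145 call under upper-quartile scaling.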

How the results depend on the processing

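Among alternative values of the coat genes' differences, 328 stayed within 1 SD of the replicates and 40 moved further, and none changed the direction of a difference without overlap. The moves came with log2(FPKM + 0.1), voom, the GC correction, upper-quartile scaling, equal sums, and leaving out DU145 replicates 1 and 3 and PC3 replicate 4. CAVIN1 in PC3 against BPH-1 went from -7.46 to -10.41 under voom. Some differences with overlapping libraries changed sign, such as PACSIN2 in PC3 against BPH-1 (-0.40 to 0.31). Over all genes, 11089 were called between PC3 and BPH-1, 10669 between DU145 and BPH-1, and 7938 between the PCa lines. They moved by over 1.5 times only with an absolute log2 fold change over 1 added (4429, 4894 and 3177) and, in PC3 against DU145, with a stricter filter (5268). Leaving out single libraries gave 10604 to 11321, 9617 to 11454 and 7019 to 8240, and 38 to 41, 31 to 41 and 21 to 28 list genes. The share of calls that were higher in PC3 against BPH-1 was 40.2%, and 54.6% under upper-quartile scaling, which moved the median of all genes by 0.22 (0.16 in DU145 against BPH-1), while equal sums moved it by -0.15 and -0.14. With the GC trend divided out, FLNA (-0.29) and BIN1 (-0.19) reversed in PC3 against BPH-1, a construction that also removes differences between lines that follow GC content. With the replicate number as a block, 10737, 10134 and 6746 genes and 40, 34 and 22 list genes were called, but the numbers did not pair the samples: deviations of same-numbered libraries correlated between -0.65 and 0.51, over 0.1 in 2 of 12 pairs. Depth limits CAV3, CAVIN3 outside DU145, and CAVIN1, CAVIN2 and EHD2 in PC3, where 0 to 38 reads were found per library.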
